A study of Mus musculus with 12 samples.

Results

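The sg3 line is a line of 6DT1 cells in which Resf1 was disrupted by CRISPR-Cas9 with the guide named sg3, and it was compared here with the sgControl line, which carries a scrambled guide and is labelled wild type. The comparison takes the 3 libraries labelled sg3 and the 3 labelled sgControl, 6 of the 12 libraries of the series, over all 982 genes of the deposited table. The other 6 libraries come from lines made with the guides sg1 and sg2, 3 for each, and were used to test where sg3 differs from other Resf1 knockout lines. 6DT1 is a mouse mammary cancer line that came from a tumor driven by a Myc transgene under the MMTV promoter. The labels give medium with serum and puromycin for all groups, in protocols that describe shRNA constructs and not these CRISPR lines, so that selection of these lines with puromycin is uncertain. Each line was seeded in 3 dishes for RNA. The study's methods place the guides in exon 3 of Resf1, describe delivery by a lentiviral vector with GFP, and state that sorted knockout cells were plated singly and expanded as clones, while cloning of the control line is not stated. Replicates within a group are parallel dishes of 1 line, so the p-values measure the spread of culture and library preparation, and the effect of the guide cannot be told apart from that of the clone that carries it. The targeted gene, Resf1, was not analysed here, and its loss could not be checked against the labels.

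RESF1 is a large, mostly unstructured nuclear protein known for its part in silencing retroelements in embryonic stem cells, together with the histone methyltransferase SETDB1. Silencing of this kind acts through repressive histone methylation and can reach host genes near repeats. The comparison asks which transcripts differ when Resf1 is disrupted, and in this line the genes named below reach from Wnt receptors and lipid metabolism to the unfolded protein response, the program by which cells adjust the folding capacity of the endoplasmic reticulum.

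The table held normalized counts, which are estimated read counts divided by 1 size factor per library. Their sums ran from 2069298 to 2299634 in sgControl and from 2232030 to 2395491 in sg3, and cover only the genes of the table, so total depth is unknown. One feature without a symbol, ENSMUSG00000119584, took 16.1% to 24.1% of the sum in the control libraries and 25.02% to 28.8% in the sg3 libraries. Among the controls, replicate 1 held the highest share (24.1%) and differed most from the others, by a chi-square over degrees of freedom of 35.9 and 53.2 against 12.9 between replicates 2 and 3. Between replicates, the median standard deviation on the log2 scale was 0.09 in sgControl and 0.11 in sg3. The labelled cell type was checked on the markers that the table holds: 4 of 13 luminal markers were present (Krt8, Krt18, Krt19 and Cgn), and Krt8 and Krt18 stood at 6215 and 5784 normalized counts in the control mean. None of 7 basal markers and none of 20 markers of leukocytes, endothelium and fibroblasts was in the table, and these were not analysed here. RNA was taken from whole dishes, where fewer cells of a type and less RNA per cell cannot be told apart.

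The sg3 line differed from control at 588 of 982 genes (59.9%) at an adjusted p of at most 0.05 (limma, Benjamini-Hochberg over the table). Of these, 260 genes were higher (26.5%) and 328 lower (33.4%). Without sgControl replicate 1, 219 were higher and 264 lower. The table was limited beforehand to genes that differ in the knockout lines, so these shares do not describe all genes of the cell. The p-values were adjusted over these selected genes only and do not allow for the selection. Most differences were small: the median absolute log2 fold change over the table was 0.23, a fold of 1.18, and among the called genes it was 0.39. The large ones were mostly losses, as 87 called genes were over 2-fold lower and 43 over 2-fold higher, and 20 were over 8-fold lower against 2 over 8-fold higher. The sg3 libraries did not overlap the control libraries for 593 genes (60.4%), above for 266 (27.1%) and below for 327 (33.3%). How many genes rose and fell varied with the scaling: with every library set to the same table total, 142 genes were higher and 377 lower, and with the dependence on transcript length and GC content taken out, 397 were higher and 180 lower. Under these settings the log2 fold changes of single genes moved by a median of -0.10 and 0.12.

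**Figure D1:**
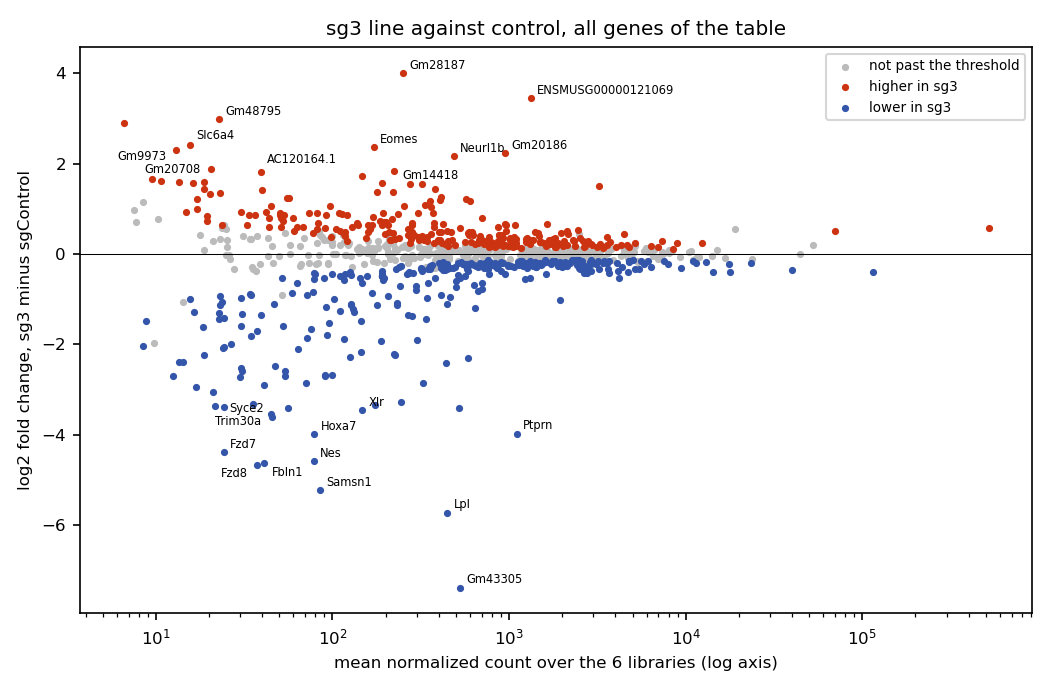
Log2 fold change of sg3 against sgControl (vertical axis) by the mean normalized count over the 6 libraries (horizontal log axis), 1 point per gene, with labels on the largest rises and falls. The falls reach -7.39 (Gm43305) and -5.73 (Lpl), while the largest rise is 4.01 (Gm28187), and most of the 982 genes lie close to 0.

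Apart from the predicted gene Gm43305, the largest loss was of Lpl, the lipase that releases fatty acids from circulating lipoproteins. Its normalized counts were 921, 731 and 975 in the control libraries and 22.1, 10.6 and 15.5 in the sg3 libraries. All 3 sg3 libraries were far below the lowest control, and the mean fell from 876 ± 128 to 16.1 ± 5.78 (SD, n = 3 each), or -5.73 ± 0.18 (SE) on the log2 scale (limma, adjusted p = 2.53e-13). The other knockout lines kept this transcript near the control level, with means of 696 in sg1 and 795 in sg2.

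Il2rg, the common gamma chain shared by several interleukin receptors, was lost in the same way. It counted 887, 970.4 and 1004 in sgControl and 80.3, 91.4 and 95.8 in sg3, with no overlap and a log2 fold change of -3.41 ± 0.08 (limma, adjusted p = 4.38e-16). Its mean was 1192 in sg1 and 1034 in sg2. Samsn1, an adaptor protein best known in lymphocytes, stood at 160.1, 151 and 189.7 in sgControl and at 2.33, 3.85 and 4.56 in sg3. All sg3 libraries were below all controls, at a log2 fold change of -5.22 ± 0.25 (limma, adjusted p = 1.24e-11). For Samsn1 the other lines moved in opposite directions, with a mean of 28.9 in sg1 and 406 in sg2.

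All 3 Frizzled receptors in the table, which bind Wnt ligands, fell in this line. Fzd8 counted 75.7, 62.6 and 79.1 in sgControl and 1.16, 1.93 and 2.74 in sg3, and Fzd7 counted 51.1, 40.8 and 49.6 against 1.16, 1.93 and 0.912. In sg3 each library held at most 3 estimated reads of either gene, taken here as the floor. Set against 3 reads per library, Fzd8 was at least 23.8-fold lower and Fzd7 at least 15.5-fold lower, bounds that cover counting error only. Fzd6, a receptor of the same family, was present throughout and fell from 535 ± 39.3 to 286 ± 33.6 (log2 fold change -0.90 ± 0.10, limma, adjusted p = 1.2e-06). The co-receptor Lrp6 rose slightly, from 4017 to 4615 (log2 fold change 0.20). In the list of 10 Wnt, Notch, Hedgehog and TGF-beta genes, 4 fell and 2 rose (4 and none with every library scaled to the table total), with Bmp7 (-0.37) as the other fall and Notch1 (0.31) as the other rise. The share called in this list, 60%, was that of the whole table (59.9%), and Bmp7 and Lrp6 did not pass with the length and GC trend removed. Fzd7 was lower in the other lines too, at means of 29.8 in sg1 and 25.1 in sg2 against 47.2 in control, and so was Fzd6, at 316 and 346, where sg3 against their mean did not pass (-0.21, limma, adjusted p = 0.0525). Fzd8 was at 213 in sg1 and 5.18 in sg2.

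Nes and Ptprn were also among the 12 largest falls. Nes, an intermediate filament protein of neural progenitors, counted 151, 161 and 142 in sgControl and 5.82, 5.78 and 4.56 in sg3. The groups were far apart (log2 fold change -4.58 ± 0.11, limma, adjusted p = 4.38e-16), and the other lines lay on the opposite side of control, with means of 2293 in sg1 and 958 in sg2. Ptprn, a membrane protein of secretory granules, fell from 2133, 2161 and 1957 to 101, 139.6 and 159.7. This was the most abundant gene among the 12 largest falls, with a log2 fold change of -3.98 ± 0.13, and it was also low in sg2 (mean 370.0) but not in sg1 (3009.7). Rgma, an axon guidance molecule that also serves as a BMP co-receptor, was among the 6 genes furthest below the other lines and fell from a mean of 103 to 8.93 (log2 fold change -3.41).

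The remaining large falls were of varied function. Fbln1, a glycoprotein of the extracellular matrix, counted 83.5, 75.3 and 78.2 in sgControl and 3.49, 0.963 and 2.74 in sg3, where it was at the floor and at least 26.0-fold lower. Hoxa7, a homeobox transcription factor, fell from a mean of 149 to 8.74, and Syce2, a component of the meiotic synaptonemal complex, from 83.4 to 6.43. Xlr, a member of a family of near-identical X-linked genes between which reads can be shared, fell from 270.5 to 24.4. Gm43305, a predicted gene, showed the largest fitted change of all, from 1111, 923 and 1128 to 11.7, 1.93 and 5.58 (log2 fold change -7.39 ± 0.59). Its sg2 libraries were as low, with a mean of 11.4. Further genes were picked after their values were seen: Celsr1, a cadherin of planar cell polarity, fell from 569 to 78.3, the necroptosis kinase Ripk3 from 369.6 to 79.1, and Stk39, a kinase that regulates cation-chloride cotransport, from 746 to 138. The means in sg1 and sg2 were 800.5 and 1043 for Celsr1, 612 and 492 for Ripk3, and 641 and 807 for Stk39.

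Rises over 2-fold were fewer than such falls. Eomes, a T-box transcription factor, counted 73.7, 53.5 and 41.0 in sgControl and 307, 295 and 260.0 in sg3. Its sg3 libraries were the highest of all 12, and the log2 fold change was 2.37 ± 0.20 (limma, adjusted p = 3.36e-08), while sg1 stood below control at a mean of 11.3 and sg2 above it at 169. Neurl1b, a ubiquitin ligase that acts on Notch ligands, rose from 176 ± 12.3 to 797 ± 38.5 (log2 fold change 2.18 ± 0.09, limma, adjusted p = 6.09e-13). It was raised in the other lines as well, at means of 599 and 508, and every sg3 library was above every library of those lines.

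Ddr2, a receptor tyrosine kinase for fibrillar collagen, was the most abundant of the genes raised over 2-fold that are described here. Its values were 1697, 1663 and 1725 in sgControl and 5190.4, 4463 and 4759 in sg3, without overlap and with a fold of 2.83 on the fitted scale (limma, adjusted p = 3.66e-13). In the list of 10 receptor tyrosine kinase, growth factor and RAS-MAPK genes to which it belongs, 4 rose and 2 fell, and the share called (60%) was that of the whole table. The other rises were of Ephb2, an ephrin receptor, from 212 to 452, of the growth factor Btc from 37.4 to 67.6, and of the receptor Met by 0.12 on the log2 scale, which did not pass with the length and GC trend removed. The falls were of the angiogenic factor Vegfa, from 377 to 216, and the receptor Tyro3, from 129 to 91.5, of which Tyro3 did not pass with that trend removed (-0.21). In that setting 6 of the 10 rose and 1 fell, with Ptk7, Mertk and Rras as the added rises. The list held 1 fall in place of 2 without sgControl replicate 1 or 3 or without sg3 replicate 1 or 3. Evl, which binds actin filament ends, rose from 163 to 476 (log2 fold change 1.55), and Kcnab2, a subunit of potassium channels, from 141 to 412 (1.54). In sg2 their means were similarly high, at 429 and 523, and in sg1 they were 203 and 126.

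Of the 12 largest rises, 9 were predicted genes or features without a symbol. Gm28187 rose from 28.9 ± 8.58 to 472 ± 72.8, and ENSMUSG00000121069 from 240.3, 179.9 and 249 to 2344, 2458 and 2494. Neither overlapped control, and both were raised in the other lines, with means of 229 in sg1 and 627 in sg2 for the first and 2355 and 2444 for the second. Gm14418 differed in this respect: its mean was 349.6 in sg3 against 98.0 in control, 92.7 in sg1 and 154 in sg2. The serotonin transporter Slc6a4 was low throughout, at 1.97, 12.7 and 1.91 against 27.9, 29.8 and 19.2 (log2 fold change 2.42 ± 0.62, limma, adjusted p = 0.00402). Of the table's 86 predicted and unnamed transcripts, 34 rose and 32 fell in sg3, 76.7% called against 59.9% of the whole table. With the length and GC trend removed, which left out 10 of the 86 for want of annotation, 36 of 76 rose and 19 fell, and without sg3 replicate 1 29 rose and 20 fell.

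**Figure D2:**
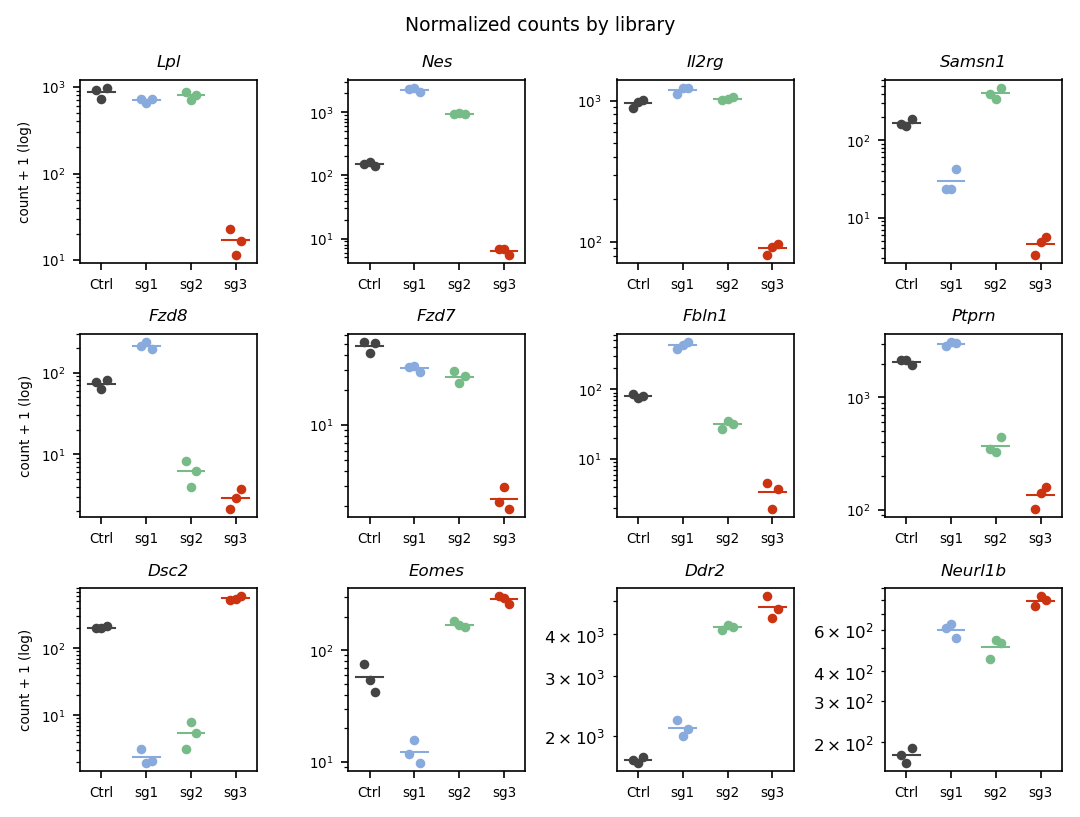
Normalized count + 1 (vertical log axis, its range set per panel) of 12 genes in each library, grouped by line on the horizontal axis, where points are libraries and lines are group means. The sg3 points of Lpl, Nes, Il2rg, Samsn1, Fzd8, Fzd7, Fbln1 and Ptprn lie below all other points, and those of Dsc2, Eomes, Ddr2 and Neurl1b above them.

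Genes of the unfolded protein response were mostly lower in sg3. The response runs from sensors in the membrane of the endoplasmic reticulum to transcription factors that raise chaperones and disulfide isomerases, and some of its promoters carry a known control site, the ER stress response element. Of 17 genes in the list of the integrated stress and unfolded protein response, 12 fell and 2 rose, with a median log2 fold change of -0.26 against -0.03 over the whole table, of which 33.4% fell. The sg2 line had the same counts, 12 lower and 2 higher with a median of -0.22, and in sg1 6 were lower and 4 higher with a median of -0.11. Over all 982 genes, 289 were lower and 297 higher in sg2 (median -0.02), and 384 were lower and 492 higher in sg1 (median 0.20). All lines were set against the same control libraries. To show the site, the 250 bases before the start of each gene in RefSeq (build GRCm38.p6) were searched for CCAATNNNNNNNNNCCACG on both strands, where N is any base. The site was found in 35 of 27025 genes (0.13%), in 4 of 702 genes of the table with a sequence (0.57%) and in 4 of the 13 list members with one (30.8%). All 4 were among the 9 of these 13 members that fell, and whether the site goes with the fall was not tested. The 4 stretches are shown in the direction of transcription, with the site in capitals. Where the region allows, 30 bases stand on either side.
Hspa5, chr2:34771995-34772073, plus strand: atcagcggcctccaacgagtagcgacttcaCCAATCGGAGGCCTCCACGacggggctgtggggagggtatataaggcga
Calr, chr8:84847045-84847123, minus strand, site on the opposite strand: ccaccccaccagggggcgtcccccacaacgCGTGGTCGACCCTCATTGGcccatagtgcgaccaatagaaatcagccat
Pdia6, chr12:17266461-17266539, plus strand: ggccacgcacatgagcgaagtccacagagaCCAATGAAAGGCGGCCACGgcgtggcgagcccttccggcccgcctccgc
Syvn1, chr19:6046502-6046575, plus strand: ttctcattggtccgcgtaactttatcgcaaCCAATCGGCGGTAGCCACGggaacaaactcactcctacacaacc
The near end of the site lay 46 bases before the start in Hspa5, 143 in Calr, 79 in Pdia6 and 25 in Syvn1. The element was picked for the search after the list's values were seen, and a match in letters is a description of the promoter and not a measure of binding.

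Hspa5, the main chaperone of the endoplasmic reticulum, counted 15603, 16557 and 16286 in sgControl and 11721, 11960.2 and 13114 in sg3. The groups did not overlap, and the log2 fold change was -0.40 ± 0.06 (limma, adjusted p = 1.38e-05), against -0.38 in sg2 and -0.02 in sg1. Calr, a calcium-binding lectin chaperone, fell from 20247 ± 1087 to 15408 ± 837 (-0.39 ± 0.06, limma, adjusted p = 3.7e-05), against -0.42 in sg2 and -0.11 in sg1. The largest fall of the list was that of Sdf2l1, a cofactor of Hspa5, from 599, 689 and 590.1 to 361, 389.8 and 373, where all 3 sg3 libraries were also below every library of sg1 and sg2 (-0.74 ± 0.08, limma, adjusted p = 1.1e-06).

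The falls covered several steps of the pathway. Xbp1, a transcription factor of the response, changed by -0.37, the chaperone Hyou1 by -0.40, and the secreted factor Manf by -0.42. The disulfide isomerases Pdia6 (-0.38), Pdia4 (-0.30) and Pdia3 (-0.21) and the oxidase Ero1lb (-0.26) fell, as did Syvn1 (-0.26) and Edem1 (-0.20), which act in the disposal of misfolded proteins. The sensor Ern1, from 400 to 406 on average, and Nupr1, from 742 to 804, did not pass the test. The 2 rises were of the sensor Atf6, by 0.16, and of Vldlr, a lipoprotein receptor placed on the list for its response to stress, which went from 345 to 801 (1.22). Only 1 fall remained in a test against a 1.2-fold change. With the length and GC trend removed 10 genes fell and 3 rose, and Xbp1, Syvn1 and Atf6 did not pass. The rises in that setting were of Vldlr, of Nupr1 (0.24) and of a further member that had not passed before. Beside these genes, Fkbp11, a prolyl isomerase of the endoplasmic reticulum, fell from 209, 203 and 230 to 71.0, 67.4 and 92.2 (-1.48 ± 0.12, limma, adjusted p = 1.41e-08), with means of 295 and 211 in sg1 and sg2. In the test against the mean of sg1 and sg2, 11 of the 17 list members were lower in sg3 and 1 was higher, where 35.8% of the whole table was lower. A test of sg3 against sg2 alone was not run.

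The p53 pathway moved the other way. This program, in which the protein p53 switches on genes for cell cycle arrest, repair and death, was represented by 9 genes together with caspases, of which 7 rose, none fell and all 9 had a positive log2 fold change (median 0.39). Over all 982 genes, 26.5% rose. Against the same controls the other lines gave 8 higher in sg2 (median 0.38) and 7 in sg1 (0.21), with none lower in either. Over all 982 genes, 297 were higher in sg2 (median -0.02) and 492 in sg1 (median 0.20). In sg3, 4 of the 9 were higher and 3 lower than the mean of those lines. Eda2r, a death-domain receptor of the TNF receptor family, counted 108, 89.8 and 91.5 in sgControl and 292, 281 and 286 in sg3 (1.56 ± 0.12, limma, adjusted p = 6.07e-09), and its log2 fold change was 1.79 in sg2 and 0.42 in sg1. Mdm2, the ubiquitin ligase that restrains p53 and is itself a p53 target, rose from 2466, 2599 and 2447 to 3127, 2998 and 3100.4 (0.30 ± 0.05, limma, adjusted p = 4.68e-05). Its sg3 libraries were the highest of all 12. The p53 targets Zmat3 (0.47), Ccng1 (0.39) and Polk (0.31) rose as well. The caspases Casp1 (from 219 to 493) and Casp12 (from 51.3 to 96.7) rose, with higher means in the other lines (779 in sg1 and 526 in sg2 for Casp1, 171 and 131 for Casp12), and Cflar (0.13), an inhibitor of caspase activation, did not pass the test. All 9 stayed positive in each alternative setting run, and 5 to 8 of them passed except in the test against a 1.2-fold change, where 4 did.

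**Figure D3:**
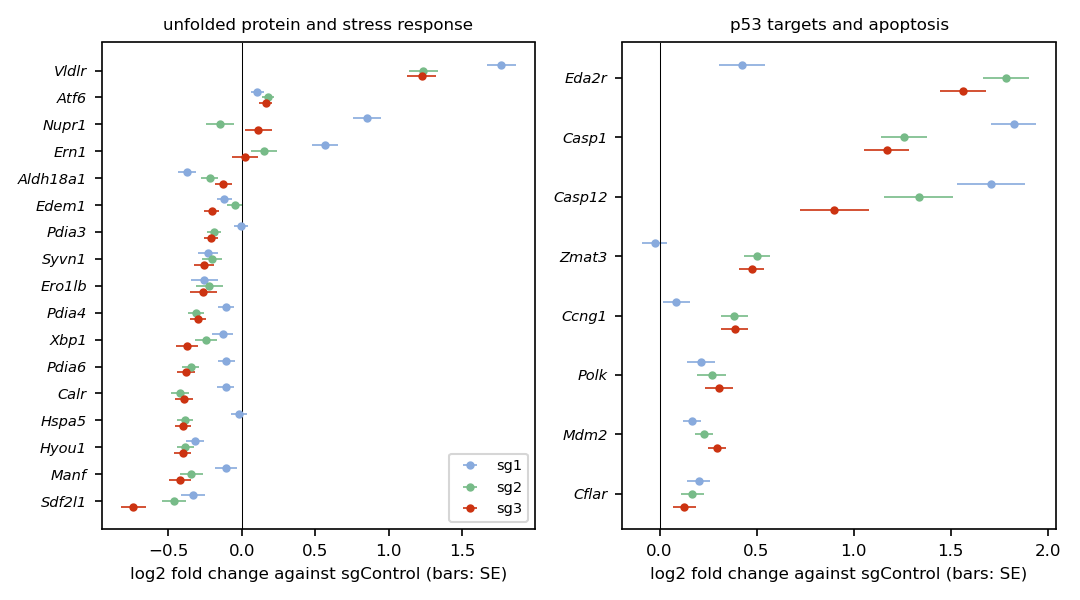
Log2 fold changes against sgControl on the horizontal axis with SE as bars, for the members of the stress response list on the left and for 8 of the 9 of the p53 and apoptosis list on the right, in the 3 knockout lines, which share their control libraries. In sg3, 13 of 17 stress genes lie to the left of 0, down to -0.74 for Sdf2l1, and the 8 genes plotted on the right all lie above 0, up to 1.56 for Eda2r.

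Small falls, and no rises, were called among genes of ribosomes and mitochondria. Of 12 genes of cytosolic ribosomal proteins, 10 fell and none rose (33.4% and 26.5% in the whole table), and all 12 had a negative log2 fold change, with a median of -0.20. Rpl39 fell from 3234, 3183 and 3444 to 2330.1, 2567 and 2672, without overlap and also below every library of the other lines (-0.38 ± 0.06, limma, adjusted p = 2.2e-05). Rplp0, the stalk protein, fell from 18767 ± 643 to 16203 ± 1029.7 (-0.21). Of 16 ribosome biogenesis factors, 7 fell and none rose (43.8% called, median -0.15), with Ddx56 (-0.34) and Nop16 (-0.21) as examples, and of 15 genes of mitochondrial ribosomes and respiration, 7 fell and none rose (46.7% called, median -0.13), among them the complex I subunits Ndufb8 and Ndufc1 (both -0.26). Most of these falls did not hold once the dependence on length and GC content was taken out: of the ribosomal protein genes Rpl39 alone then fell and 5 of the 12 were positive, 3 biogenesis factors rose and none fell, and 3 mitochondrial genes rose and 3 fell, Ndufb8 and Ndufc1 among the falls. Among biogenesis factors the number that fell ranged from 1 to 10 when single libraries were left out, and was 1 without sgControl replicate 1, sgControl replicate 2 or sg3 replicate 3. Among mitochondrial genes it ranged from 3 without sg3 replicate 1 to 10 without sg3 replicate 2, and was 4 without sgControl replicate 1 or sgControl replicate 2. Myc, a driver of such genes and the transgene of the original tumor, averaged 17197 ± 1965 in sgControl and 16159 ± 1641 in sg3, which did not pass the test (-0.09, limma, adjusted p = 0.343).

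Epithelial and matrix genes changed in both directions, with 71.4% called in each of the lists against 59.9% of the whole table. Krt19 and Cgn, a keratin and a tight junction protein, fell from 495 to 182 and from 45.0 to 3.42. Krt18 (-0.33) and Krt8 (-0.22) fell little. With the length and GC trend removed Krt18 did not pass (-0.0301) and Krt8 rose by 0.10, and of the 7 genes in the epithelial list 4 rose and 2 fell, in place of 1 and 4. In contrast Dsc2, a cadherin of desmosomes, rose from 199, 197 and 212 to 529.6, 533 and 604 (1.45 ± 0.29, limma, adjusted p = 0.000573). Of 14 mesenchymal and matrix genes, 7 rose and 3 fell (3 and 5 with every library scaled to the table total), with fibronectin (Fn1, from 743 to 1170.1) and the collagen chain Col6a3 (from 388 to 547) among the rises and Fbln1 and the protease Mmp11 (from 44.2 to 17.5) among the falls. Of the mesenchymal markers only Fn1 and the transcription factor Zeb1 (0.17) were in the table, and both rose.

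Of 11 interferon-stimulated genes 4 were lower and 3 higher, 63.6% called against 59.9% of the whole table. Trim30a fell from 90.3, 78.0 and 84.8 to 8.15, 4.81 and 5.47, and the antiviral genes Rsad2 and Oasl1 from means of 22.5 to 2.35 and from 54.3 to 14.6. Rsad2 was at the floor in sg3 and at least 7.41-fold lower. By contrast Slfn8 (1.58), Ifit2 (1.23) and Herc6 (0.44) rose. Of 6 histone genes 3 fell and 1 rose, 66.7% called. Hist2h3c1 rose from 148 to 233. The falls were of the linker histone Hist1h1a from 968 to 198, the variant H2afy2, which codes for a macroH2A protein and is not a replication-dependent histone, from 91.8 to 15.2, and Hist1h2bp from 372 to 226. Of 11 zinc finger transcription factors 5 fell, led by Zfp979 (from 125 to 16.4), and 3 rose, 72.7% called. Slc16a3, the lactate exporter MCT4, fell from 435, 418 and 472 to 58.4, 41.5 and 36.7 (-3.28 ± 0.23) and was as low in sg1 and sg2, at means of 35.7 and 38.6. Among 34 transporters and channels, 13 rose and 9 fell, 64.7% called, and with the length and GC trend removed 19 rose and 5 fell.

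The smaller lists add little, and their counts stand against 26.5% higher and 33.4% lower in the whole table. Of 5 genes of the cell cycle, 4 rose, by 0.15 (Foxm1) to 0.39 (Ccng1), but 1 did with every library scaled to the table total and 2 did without sgControl replicate 3 or sg3 replicate 3. In the list of 5 translation genes, Eif3j1 rose (0.71) and Farsa (-0.28) and Eif5a (-0.20) fell. With the length and GC trend removed Eif5a turned to 0.0735 without passing, and 2 of the 5 rose and 1 fell. Of 7 genes of polyamine, nucleotide and one-carbon metabolism, Impdh1 (-0.30) and Srm (-0.19) fell, and of 3 lipid synthesis genes, Mvd (-0.54) and Acly (-0.23) fell. With the length and GC trend removed none of these 4 falls passed, all 7 genes of the first list were positive, and 2 of them rose. Leaving out single libraries gave 1 to 6 falls in the first list, 6 without sg3 replicate 2, 4 without sgControl replicate 3 and 1 without any other library. In the lipid list it gave 0 to 3, with none without sgControl replicate 3 and 1 without sgControl replicate 1, sg3 replicate 1 or sg3 replicate 3. Of 6 NRF2 and glutathione genes, Ephx1 rose (0.49) and Prdx6 fell (-0.16), a fall that did not pass with the length and GC trend removed or without sgControl replicate 2 or sg3 replicate 1.

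**Figure D4:**
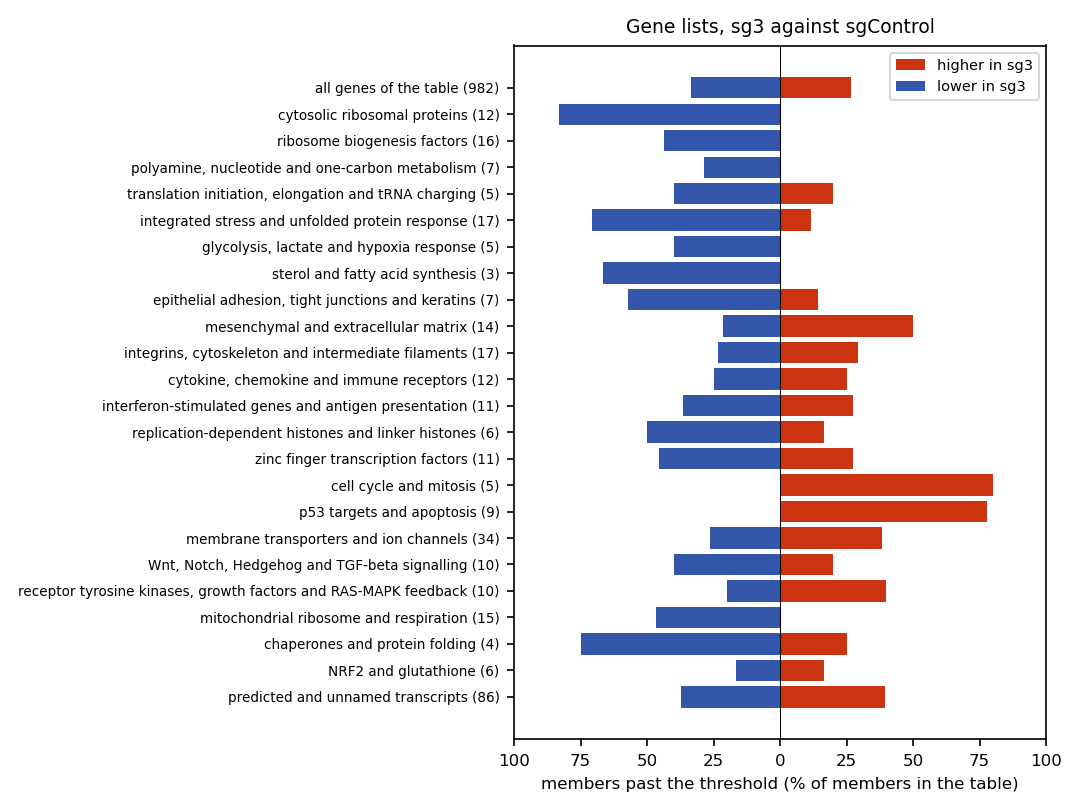
Share of each list's members in the table that passed the test in sg3 against sgControl, in percent on the horizontal axis, with falls to the left and rises to the right and the number of members in brackets. Over all 982 genes 33.4% fell and 26.5% rose, against 12 of 17 falls in the stress response list and 7 of 9 rises in the p53 and apoptosis list.

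The sg3 line was then tested directly against the other knockout lines, without the control libraries. Against the mean of sg1 and sg2, 539 genes differed (54.9%; limma, adjusted p at most 0.05), 187 higher (19%) and 352 lower (35.8%). A gene was set apart in both ways, past the test against sgControl and against the other lines in the same direction, in 115 cases lower (11.7%) and 50 higher (5.09%). All 3 sg3 libraries lay below all 9 other libraries for 69 genes (7.03%) and above them for 29 (2.95%). Of the 69, 43 were called and over 2-fold lower than control, and of the 29, 10 were called and over 2-fold higher.

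The genes furthest below the other lines were Nes, at -7.86 ± 0.09 on the log2 scale, Lpl (-5.50 ± 0.16), Fbln1 (-5.17), Samsn1 (-4.58), Xlr (-4.52) and Rgma (-3.67). The gene furthest above was Dsc2, at 7.33 ± 0.25. It had 2.13, 0.970 and 1.10 normalized counts in the sg1 libraries and 2.09, 6.97 and 4.36 in the sg2 libraries, so that sg1 was at the floor and the fitted value depends on the pseudocount. In the other genes furthest above, 1 of the lines was low and not both: Klhl13, an adaptor of a ubiquitin ligase, had means of 317 in sg3, 4.18 in sg1 and 305 in sg2, and Atp9a, a lipid flippase, 143, 6.73 and 69.6. Mvb12b, a subunit of the ESCRT-I complex, was at 216 in sg3, 259.8 in sg1 and 2.62 in sg2, and Ephb2 at 452, 739.5 and 6.36.

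The test against control was passed by 89.2% of the table in sg1 and by 59.7% in sg2. A set of 6 genes, chosen after the values were seen, passed it in sg3 and in neither other line: Lpl, Nme4, Rsad2, Ccbe1, Rprl3 and Fn1. For 5 of them the difference between sg3 and the mean of sg1 and sg2 also passed: Lpl, the mitochondrial nucleoside diphosphate kinase Nme4 (-3.09), Rsad2 (-2.62), Ccbe1 (-0.95), a secreted factor of lymphatic growth, and Fn1 (0.62). For Rprl3 it did not (-0.25, limma, adjusted p = 0.19). Nme4 counted 41.3, 37.2 and 39.1 in sgControl and 2.33, 0.963 and 8.21 in sg3, and Fn1 counted 766, 747 and 714 against 1200.0, 1262 and 1048.

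By chromosome, the share of genes called ran from 39.4% on chromosome 15 to 76.9% on chromosome X, against 59.9% over the table, and its spread was not tested. On chromosome 1, 37 of 53 genes were called (69.8%), 26 higher and 11 lower, with a median log2 fold change of 0.19. On chromosome 15, which holds the most genes of the table, 37 of 94 were called, 11 higher and 26 lower, and the median was 0.00147. The same 94 genes had a median of 0.62 in sg1 and 0.03 in sg2 against the shared controls, and 75 of them were lower in sg3 than the mean of sg1 and sg2, with 4 higher, where 35.8% of the whole table was lower. Chromosomes were taken from GENCODE release M21, by gene name.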

How the data were processed

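Total RNA of 6DT1 lines was sequenced as stranded libraries, 3 per line. The authors deposited a normalized signal for each gene. Its low values show what it is, estimated counts divided by a size factor of the library: below 80 steps, 80.5% to 84.2% of values in the 6 libraries fell within 0.05 reads of a whole number of steps. The remaining low values did not, so whole reads could not be recovered for every gene and no count test was used. The submitters' processing notes name Partek, STAR 2.7.8a and DESeq2, without roles. The genome build, annotation and counting method for these libraries are not given in the sources used here. A size factor moves all genes of a library together, and reads of near-identical copies can be split between them.

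Log2(value + 1) was fitted with limma 3.58.1 (R 4.3.3) over all 12 libraries and 4 groups with an intensity trend and robust estimates. Two-sided p-values were adjusted by Benjamini-Hochberg over 982 genes, with a threshold of 0.05. Folds are on this scale, which understates changes of low genes. The design's count test for raw counts did not apply. The floor was 3 estimated reads in each library, to within 0.05 reads. The fit was also run on simulated data, and the outcome is not given here. GENCODE M21 gave symbols, lengths, GC content and chromosomes for 972 genes, and 10 had none. Replicate pairs within sgControl and sg3 differed beyond sampling noise (chi-square over degrees of freedom of 12.9 or more), so none was a duplicate.

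Genes were named by a rule: among called genes without overlap with control and with a mean of at least 20 in the higher group, the 12 largest rises and falls, the 6 genes furthest from the other lines each way among those called in both tests, and up to 4 called members of each list with at least 3 in the table. Other genes named were picked after their values were seen. The members and lists were chosen with earlier results of these data known, so lists are described by counts and medians without a test. Some list members are counted but not reported by name here. Promoter sequences came from RefSeq. Alternatives were 4 other scalings, 2 pseudocounts, a filter at a mean of 50, only the groups compared, no trend, a test against a 1.2-fold change, removal of the length and GC trend, a replicate block, both together, and leaving out single libraries.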

Additional observations from a re-analysis of the deposited data

Results flagged for a closer look

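The lines differed from each other in the same contrast, tested directly as sg3 against the mean of sg1 and sg2 (limma, adjusted p at most 0.05). By this test 539 genes differed, among them the named genes given here. Values are log2 differences, sg3 minus the mean of the other lines. Lower in sg3 were Nes (-7.86), Lpl (-5.50), Fbln1 (-5.17), Samsn1 (-4.58), Xlr (-4.52), Rgma (-3.67), Fzd8 (-3.63), Fzd7 (-3.62), Gm43305 (-3.39), Trim30a (-3.33), Syce2 (-3.32), Hoxa7 (-3.22), Ptprn (-2.99) and Gm20186 (-0.16). Higher in sg3 were Neurl1b (0.53), Gm14418 (1.56), Ephb2 (2.62), Eomes (2.67), Atp9a (2.72), Mvb12b (2.83), Klhl13 (2.99) and Dsc2 (7.33). For Gm20186 the difference was small beside its rise against control, from a mean of 333 to 1565. The sg3 libraries of Gm43305, Klhl13, Mvb12b and Ephb2 overlapped or fell between those of the other lines, and sg1 and sg2 stood far apart there.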

How the results depend on the processing

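The number of called genes was 588 and lay between 519 and 661 under the alternatives that kept all 6 libraries, except the test against a 1.2-fold change, which left 195 genes (86 higher, 109 lower) and 224 against the other lines. The direction was less stable: 142 genes were higher with every library scaled to the table total, and with the length and GC trend removed 397 were higher and 180 lower, where 10 genes without annotation were left out. Leaving out single libraries gave 452 to 622 called genes, 212 to 254 higher and 232 to 368 lower, and 495 to 525 against the other lines. Replicate numbers of sg3 and sgControl did not pair: same-number correlations of deviations were -0.04, -0.08 and -0.00383. With the replicate block 661 genes were called (292 higher, 369 lower) and 590 against the other lines, and with the block and the length and GC trend removed 424 were higher and 192 lower. Of 99 named genes, 64 kept direction and call in each setting that held them (the filter kept 86 of the 99, and 97 had the annotation for the length and GC trend), 35 lost the call in at least 1, and 8 turned with the length and GC trend removed, with and without the block: Rps10 (0.0401), Nob1 (0.0476), Impdh1 (0.0415), Srm (0.14), Eif5a (0.0735), Phb (0.0830), Ppif (0.00478) and Fkbp4 (0.11). The cause was not tested. Total depth is unknown, and for genes at about 3 reads or fewer in a group the fitted differences depend on the pseudocount.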
